A study of Mus musculus with 4 samples.

Results

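Nodal and the genes of its secreted antagonists, Lefty1 and Lefty2, were followed in a table of RNA regions recovered with an antibody against N6-methyladenosine (m6A), a methyl mark on adenosines of mRNA, from mouse embryonic stem cells. Every row under one of these 3 gene symbols was taken, which gave 6 distinct regions of the 6697 in the table and 3 genes of its 3882. Nodal had 2 regions, Lefty1 had 1 and Lefty2 had 3, and none of them was listed under a further gene.

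The series has 4 samples, with 1 library per group. Wild-type cells gave an immunoprecipitate of m6A-marked mRNA and its total mRNA input. Cells labelled Gsk-3 DKO, which lack the kinases Gsk-3α and Gsk-3β, gave another such pair. Both genotypes were E14K cells grown free of feeder cells, and for the last 14 days before RNA was taken they had no LIF (leukaemia inhibitory factor), which keeps such cells self-renewing. The labels do not state from how many clones or cultures the cells came. The table gives 1 count per genotype and holds 0 input columns, so the level of each mRNA, and with it the methylated share of a transcript, was not measured here. In a culture as a whole, fewer cells that make a transcript and less of it per cell cannot be told apart.

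Nodal is a ligand of the transforming growth factor β (TGF-β) family. It is cut from a precursor, binds activin receptors together with a co-receptor, and sends Smad2 and Smad3 with Smad4 into the nucleus, where they act with partners such as Foxh1. Among the genes it switches on are Nodal itself and both Lefty genes, whose proteins bind Nodal and its co-receptor and block signalling, so that the loop limits itself. Mouse embryonic stem cells are known to express all of these, and in the embryo the loop guides mesoderm and endoderm formation and left-right asymmetry. Whether the cells of either genotype were still in the stem-cell state after 14 days without LIF was not tested. Gsk-3 is best known for marking β-catenin for destruction in the Wnt pathway.

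Over the whole table, wild-type counts ran from 15 to 13799 with a median of 43, and double-knockout counts from 0 to 1100 with a median of 0. Added up over the list, these came to 573971 and 27072, or 21.2 wild-type reads for each double-knockout read, and these sums are not sequencing depth. In 0 regions did the double knockout reach the wild-type count, so a lower count in the double knockout is a property of the list and not a result for a gene in it. Gsk3a was not listed and Gsk3b only through a region upstream of the gene, so the deletion could not be checked. Of the markers that define embryonic stem cells, Pou5f1 was listed, with 55 wild-type reads against 6 in a coding exon, and Nanog and Sox2 were not.

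Nodal lies on chromosome 10 (GRCm38.p6, 61417972 to 61425338 in RefSeq, NCBI gene 18119). Its first region, from 61418290 to 61418590, was annotated to the authors' transcript NM_013611 as 5'UTR, coding exon and intron, at 468 bases from the transcription start. The other, from 61423051 to 61423218, was annotated as coding exon at 5162 bases. Both lay inside the RefSeq gene, and 2120 bases of the gene followed the end of the second.

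**Figure D1:**
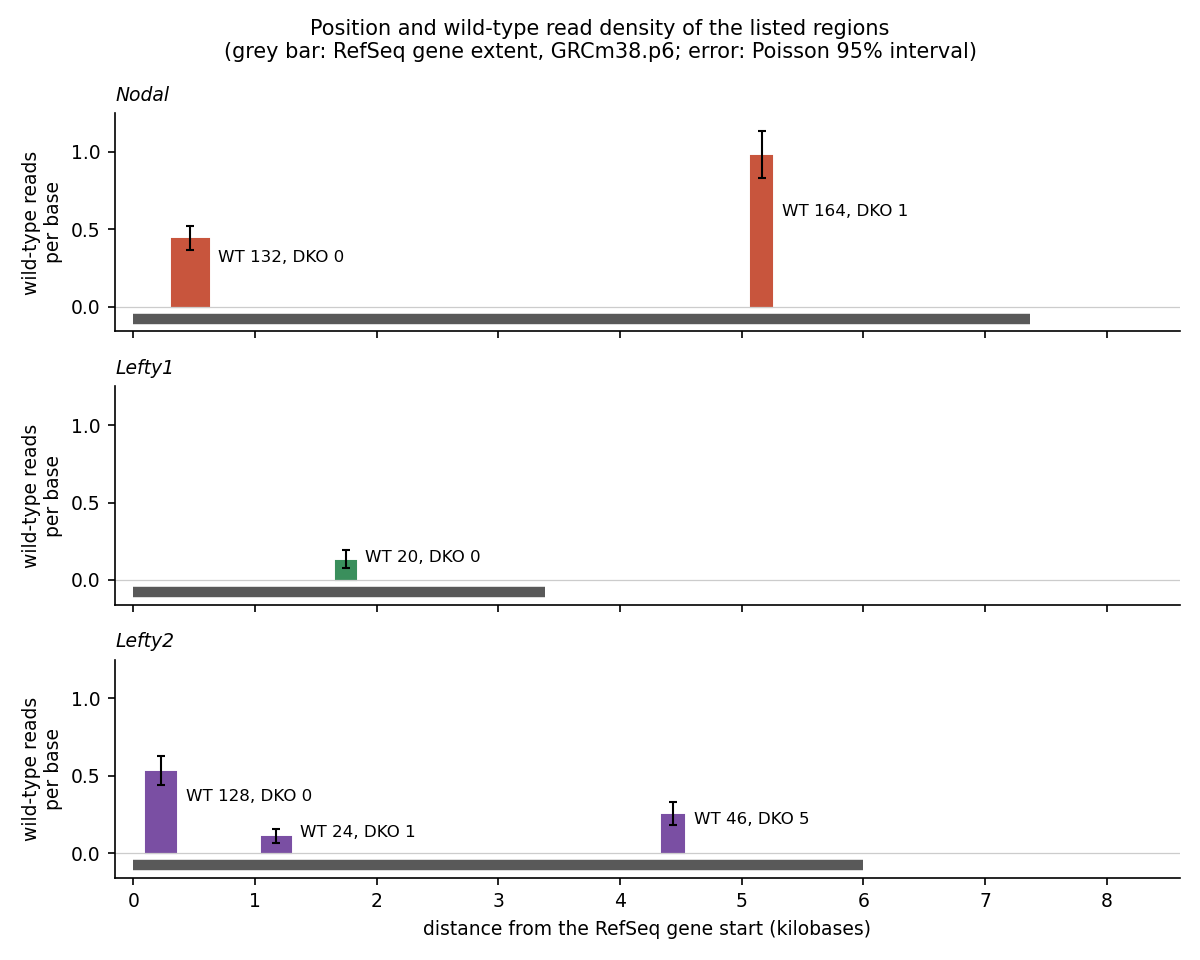
Listed regions of the 3 genes, drawn at their distance from the RefSeq gene start in kilobases, with wild-type reads per base as height and its exact Poisson 95% interval. The grey bar is the RefSeq gene extent, and the text beside each box gives the wild-type (WT) and double-knockout (DKO) counts. The second region of Nodal is the densest at 0.976 reads per base, and the first regions of Nodal and Lefty2 follow at 0.439 and 0.527.

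The 2 listed regions of Nodal had almost no reads in the double-knockout library. Reads elsewhere on the gene are not in the table. In the first region the wild-type library had 132 reads (95% Poisson interval 110 to 157) and the double-knockout library 0, which allows up to 3.69. With 3 counts in place of the 0 as a bound, this was at least 36.3-fold lower, and the exact counting interval of the ratio began at 29.1-fold. Every "at least" fold given for a count of 0 uses 3 counts in this way, and its counting interval begins lower. In the second region 164 reads (140 to 191) stood against 1 (0.0253 to 5.57), 135-fold apart (counting interval 23.9 to 5375). Both Nodal regions were thus near or at 0 in the double knockout, and their folds could not be separated at this depth. Here and below, a fold is wild type over double knockout multiplied by 0.825, the constant found in the authors' ratio, and all intervals cover counting error only.

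Taken singly, neither Nodal region was rare for its depth. The log2 value of the second, -6.50 with a pseudocount of 0.5 on both counts, was undercut by 796 of the 6697 regions (11.9%). Among the 405 regions with a wild-type count within 20% of its 164 reads, the median double-knockout count was 7 and 103 (25.4%) had 1 read or none. For the first region the 494 regions of like count had a median of 5, and 124 of them (25.1%) had 0. Summed over both regions, Nodal had 296 reads against 1 over 469 bases, a 244-fold difference (43.5 to 9675), where all regions of the table together gave 17.5-fold. Among the 181 genes with a summed wild-type count within 20% of 296, the median double-knockout sum was 14, and 20 genes (11.0%) had 1 read or none. On the same log2 scale the summed value of Nodal was -7.35, and 159 genes (4.10%) had a lower one. The ratio of the summed fold of Nodal to that of the rest of the table was 13.97 (2.49 to 554).

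**Figure D2:**
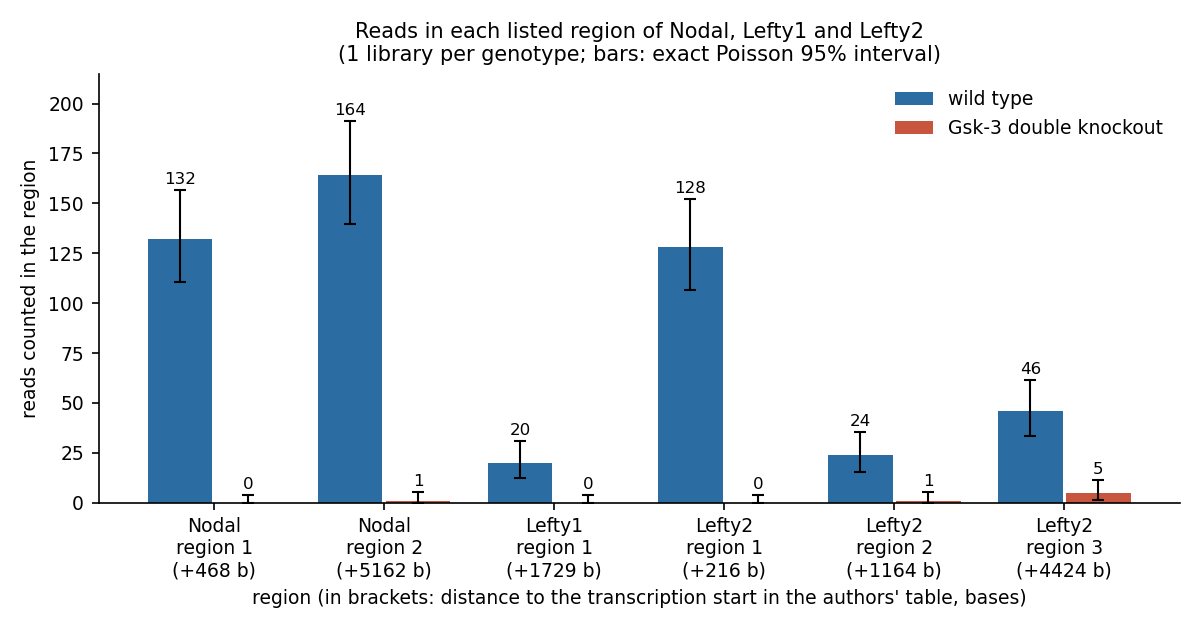
Reads counted in each of the 6 regions in the wild-type library (blue) and the double-knockout library (red), with exact Poisson 95% intervals. Wild-type counts run from 20 to 164 and double-knockout counts from 0 to 5, and the highest double-knockout count is in the third region of Lefty2.

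Lefty2 lies on chromosome 1 (180893108 to 180899107 in RefSeq, NCBI gene 320202, transcript NM_177099). Its regions ran from 180893214 to 180893456 and from 180894167 to 180894400, both spanning coding exon and intron, and from 180897451 to 180897636 in a coding exon, at 216, 1164 and 4424 bases from the transcription start. Of the 3 regions, only the first and the third could be told apart by their folds, as given below. In the first, 128 wild-type reads (107 to 152) stood against 0, at least 35.2-fold lower, with an interval that began at 28.2-fold. The second had 24 (15.4 to 35.7) against 1, a 19.8-fold difference (3.23 to 814). The third had 46 (33.7 to 61.4) against 5 (1.62 to 11.7), a 7.59-fold difference (3.03 to 24.5).

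The first region of Lefty2 thus kept no reads while the third, with fewer wild-type reads, kept more than any other region of the 3 genes. Double-knockout reads made up 0% of all reads in the first region (exact Clopper-Pearson interval 0 to 2.84%), 1 read of 25 in the second (0.101 to 20.4%) and 9.80% in the third (3.26 to 21.4%). The interval of the fold ratio between the first and the third region began at 2.42, so that difference exceeded counting error in these 2 libraries. These regions are the extremes of the gene, and the interval makes no allowance for that choice. Between the second and the third the ratio was 2.58 with an interval of 0.266 to 128, and the second could not be placed with either. Against regions of like wild-type count, the first region was 1 of 135 regions in 512 (26.4%) that had 0 reads, and in the second, 1023 of 1212 (84.4%) had 1 read or none. For the third, 1214 of 1307 regions of like count (92.9%) had 5 reads or fewer and the median was 1, so its residual count was high for the table. Its log2 value of -2.80 lay above that of 6038 regions (90.2%), and the smallest ratio in the table was 2.91.

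Summed over its 3 regions and 663 bases, Lefty2 had 198 reads against 6, a 27.2-fold difference (12.3 to 75.1). This was close to the middle of the table, since 54.8% of genes had a lower summed log2 value than its -4.65. Of 295 genes with a summed wild-type count within 20% of 198, 134 (45.4%) had 6 double-knockout reads or fewer. The deepest region alone gave -7.73, a value that its count of 0 leaves to the wild-type count and the pseudocount. With a pseudocount of 0.25 it was -8.72, and with 2 it was -5.74.

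Lefty1, 35915 bases further along the same chromosome (180935022 to 180938401 in RefSeq, NCBI gene 13590, transcript NM_010094), had a single region from 180936689 to 180936848. It spanned coding exon and intron at 1729 bases from the transcription start. It held 20 wild-type reads (12.2 to 30.9) and 0 double-knockout reads, at least 5.50-fold lower, with an interval that began at 4.07-fold. A count of 0 was usual at this depth: 1028 of the 1298 regions with 16 to 24 wild-type reads (79.2%) had none. The log2 value, -5.08, was close to the median of those regions, -4.93. Lefty1 thus showed a low wild-type signal, and the depth did not allow its fold to be told from that of Nodal or Lefty2. The Lefty1 region also lay within the RefSeq extent of Gm39715, a long non-coding RNA gene (180920413 to 180937698), and whether the counting used strand is not given in the sources used here. Lefty1 and Lefty2 are close paralogs with very similar coding sequence, and how reads that match both were assigned is likewise not given, so the split of reads between them is uncertain.

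Levels were compared per base of region in the wild-type library. The order ran from the second Nodal region at 0.976 reads per base (0.833 to 1.14), through the first Lefty2 region at 0.527 (0.439 to 0.626), the first Nodal region at 0.439 (0.367 to 0.520), the third Lefty2 region at 0.247 (0.181 to 0.330) and the Lefty1 region at 0.125 (0.0764 to 0.193), to the second Lefty2 region at 0.103 (0.0657 to 0.153). The order was set by these same densities, and the intervals of the ratios make no allowance for that. Neighbours in this order differed beyond counting error at 3 of 5 steps. The first Lefty2 and first Nodal regions did not, with a density ratio of 1.20 (0.934 to 1.54). Nor did the Lefty1 and second Lefty2 regions, with a ratio of 1.22 (0.639 to 2.30). The median density over the table was 0.219, so 4 of the regions stood above it, and 332 regions of the table were denser than the second Nodal region.

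Of the 6 regions, 3 had no double-knockout reads, where 50.5% of all regions had none. With a count of 0 set at its bound, 4 of the 6 were at least 10-fold lower, where 52.5% of all regions were, so neither share set these genes apart. Summed over listed regions, Nodal kept 1 read of 297 (0.337%, exact interval 0.00852 to 1.86%) and Lefty2 6 of 204 (2.94%, 1.09 to 6.29%). The summed fold of Nodal was 8.94 times that of Lefty2, with an interval of 1.07 to 414 whose lower end was close to no difference. The comparison of Lefty2 with Lefty1 gave an interval of the fold ratio from 0 to 9.02 and was not informative at this depth.

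**Figure D3:**
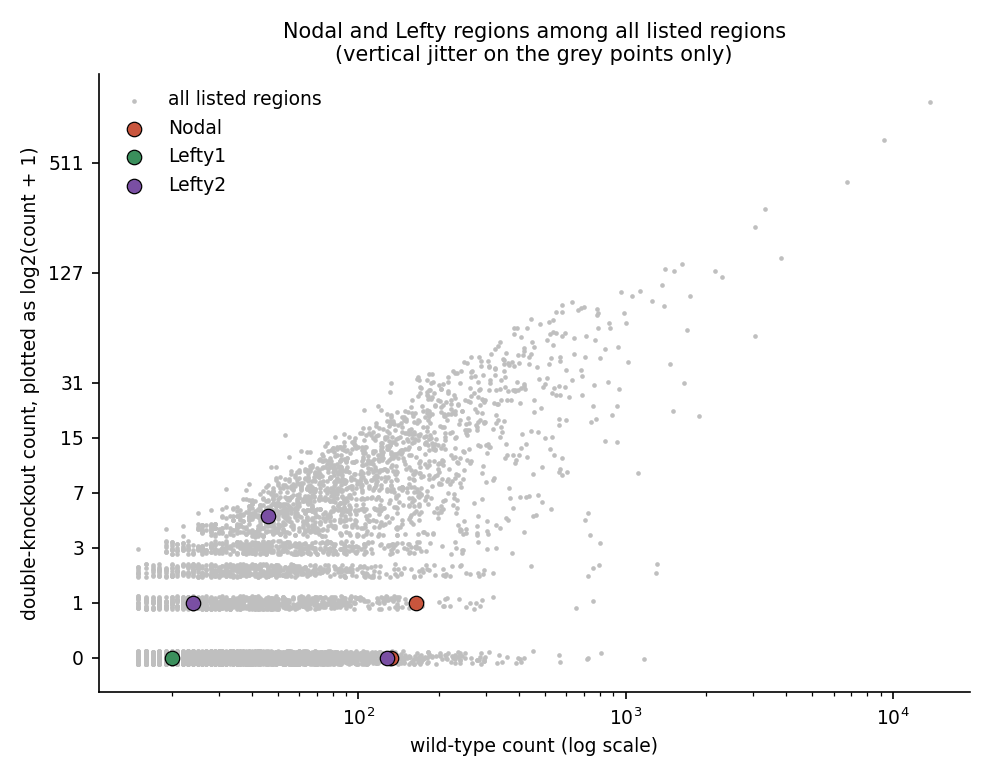
Every listed region by its wild-type count (log scale) and its double-knockout count (plotted as log2 of the count plus 1), with the regions of Nodal, Lefty1 and Lefty2 in colour. Both Nodal regions and the first Lefty2 region lie at 0 or 1 double-knockout read with more than 100 wild-type reads, and the third Lefty2 region, with 46 against 5, lies near the upper edge of the cloud.

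All 6 regions overlapped a coding exon and lay inside their RefSeq gene, and 4 of them also reached into an intron. Over the whole table, 2914 regions (43.5%) overlapped coding sequence and 1117 (16.7%) overlapped coding sequence and intron together. The RNA had been selected by its poly(A) tail, and from which molecules the intronic part of a region drew reads was not tested. None of the 6 was annotated to a 3'UTR, as 937 regions (14.0%) of the table were. The last region of Lefty2 ended 1471 bases before the end of its RefSeq gene, and that of Lefty1 1553 bases before the end of its own. The Lefty1 region and the first and second of Lefty2 were annotated to coding exon and intron alone. Of the 997 regions of this class, 428 (42.9%) had no double-knockout reads, against 417 of 1417 (29.4%) annotated to coding exon alone. The 997 regions also had a lower median wild-type count, 41 against 55. The shares were not compared at like wild-type count, so a difference by annotation was not tested.

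The pathway, with these 3 genes included, was read from a list of 47 genes written with earlier results of these data known. Of these, 18 were listed (38.3%), where 3451 of 21900 protein-coding genes (15.8%) were. Nodal, Lefty1 and Lefty2 were chosen from the table, so their listing was given in advance. Without them 15 of 44 (34.1%) were listed. The 21900 genes were not limited to those expressed in these cells, so these shares do not test for an enrichment of the pathway. A gene was represented by its deepest region, the one with the highest mean over both libraries. By that region, 9 of the 18 were at least 10-fold lower with zeros at their bound, where 55.6% of all listed genes were, and 7 had no double-knockout reads, where 46.2% of all listed genes had none. The median log2 value of the 18 was -4.34, against -4.85 over all listed genes. As a group the 18 genes were thus near the table's own background, and 8 of the 18 lay below the median of all genes. All 3 of Nodal, Lefty1 and Lefty2 were among these 8 by their deepest regions, but for the Lefty genes this depended on the setting. With regions summed, Lefty2 had -4.65, above the median of all genes (-4.77). With a pseudocount of 2, Lefty1 had -3.18, above the median of all genes (-3.45). Each Lefty gene stayed below that median in the other setting, and Nodal did in both. By deepest region and without Nodal, Lefty1 and Lefty2, the median of the remaining 15 was -4.07, and 5 of the 15 lay below the median of all genes. Of the 15, 7 were at least 10-fold lower and 5 had no double-knockout reads.

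**Figure D4:**
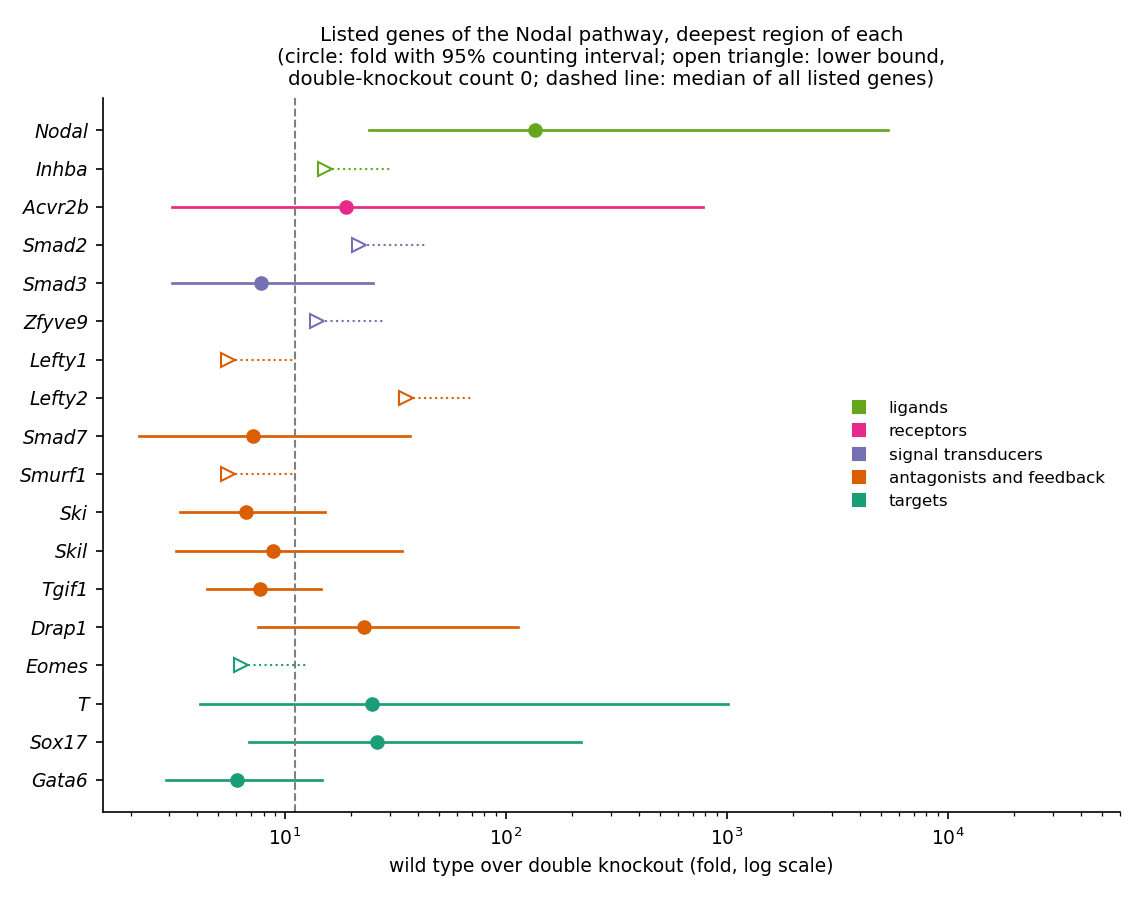
Fold of wild type over double knockout (log scale) in the deepest region of each of the 18 listed pathway genes, coloured by role. Circles carry the exact 95% counting interval, open triangles are lower bounds for genes with no double-knockout reads (the dotted tails have no scale), and the dashed line is the median of all listed genes, 11.1-fold. Among genes with double-knockout reads, Nodal, at 135-fold, has the highest fold, and Sox17 follows at 25.98-fold. The fold of Nodal rests on 1 double-knockout read, and its interval (23.9 to 5375) overlaps that of Sox17 (6.90 to 219). Genes at a lower bound have no upper limit and cannot be ranked against it.

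Among the 7 ligands of the list, Nodal was joined by Inhba, which encodes a subunit of activin A, the ligand that shares Nodal's receptors. Inhba had 36 and 55 reads in a region of coding exon and in one of coding exon and 3'UTR, against 0 in each, at least 9.90-fold and 15.1-fold lower. The furin-type proteases and the co-receptor genes of the list (0 of 2 each) were not listed. Of 4 receptor genes only Acvr2b, a type II activin receptor, was, with 23 reads against 1 in an intron (18.97-fold, 3.08 to 781).

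The signal transducers ranged from 0 double-knockout reads to several. Smad2 had 79 reads against 0 in a region covering 5'UTR, coding exon and intron, at least 21.7-fold lower. Smad3 had 47 against 5 near its transcription start (7.75-fold, 3.10 to 24.98) and, in the 3'UTR, 33 against 1 (27.2-fold, 4.56 to 1107), and these intervals overlapped. Zfyve9, which encodes the Smad anchor SARA, had 51 against 0 in an intron, at least 14.0-fold lower. Smad4 and Foxh1 were not listed.

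Of the 16 antagonist and feedback genes 8 were listed. Apart from the Lefty genes, Smurf1 alone of the other 6 had no double-knockout reads in its deepest region, where 46.2% of all listed genes had none. Tgif1, a co-repressor of Smads, had 131 against 14 in a coding exon (7.72-fold, 4.44 to 14.5). The Smad-binding repressor Ski had 73 against 9 in one coding exon (6.69-fold, 3.34 to 15.2) but 45 against 0 in a region close to its transcription start, at least 12.4-fold lower. Its relative Skil had 43 against 4 (8.87-fold, 3.22 to 34.0), and the inhibitory Smad gene Smad7 26 against 3 (7.15-fold, 2.19 to 36.9). Drap1, a general co-repressor that binds Foxh1, had 83 against 3, 44 against 0 and, upstream of the gene, 36 against 5. The ubiquitin ligase gene Smurf1 had 20 against 0 in its 3'UTR, the same counts as Lefty1. The interval of Tgif1 ended below the 23.9-fold at which that of the second Nodal region began, and so did that of Ski in its deepest region. The same held for the upstream Drap1 region (2.32 to 19.4) and, among the target genes, for Gata6 (2.89 to 14.7).

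Among 10 target genes 4 were listed. The mesoderm factor T (brachyury) had 30 against 1 (24.7-fold, 4.11 to 1009) and Eomes, a T-box factor of mesoderm and endoderm, 23 against 0, at least 6.32-fold lower, both in regions of 5'UTR and coding exon. The endoderm factor Sox17 had 63 against 2 in an intron (25.98-fold, 6.90 to 219) and Gata6, of primitive endoderm, 59 against 8 (6.08-fold, 2.89 to 14.7).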

How the data were processed

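Per the labels' protocols, poly(A) RNA was selected, m6A-bearing mRNA was captured with antibody-coupled beads, RNA was chemically fragmented and Ion Torrent libraries were made. Per the submitters' processing notes, Bowtie2, DESeq and the build mm9 were used, with no version or role. The peak caller, the listing rule and the strand setting are not stated there. All 6 regions lay inside their genes in RefSeq's GRCm38.p6 table, so coordinates are described as that build.

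The authors deposited 1 count per region and genotype, and the headers do not say whether counts were normalized. Column names give a genotype only. They were taken as the m6A libraries, whose titles name the assay, and input or input-corrected values cannot be told apart from them. The deposited ratio (enrichment factor) equals the wild-type over the double-knockout count times 0.825, and is blank where the latter is 0. The deposited signal (read density) equals the wild-type count over region length.

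Of 7562 rows, 6697 distinct regions were used once each. Log2 values of double knockout over wild type carry a pseudocount of 0.5, and a double-knockout count of 0 was set at 3 counts for bounds. Intervals are exact Poisson, Clopper-Pearson for shares and ratios of 2 counts, and exact conditional for ratios of folds (scipy 1.17.1). PCR reads without molecular identifiers are not independent molecules. With 1 library per group there is no p-value, and comparisons hold for these libraries. Regions or genes of like count have a wild-type count within 20%. The scripts were tested on simulated data. Members and lists were chosen with earlier results of these data known, and every region of the 3 genes and every listed pathway gene used here is named. A gene of the planned pathway list is not reported here and was left out of its counts. Alternatives were other pseudocounts, no scaling, a median-ratio factor, summed or averaged regions, exonic regions only, a filter on low counts, and the list without the 3 genes.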

Additional observations from a re-analysis of the deposited data

How the results depend on the processing

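The log2 values of the deepest regions were -6.50 for Nodal, -5.08 for Lefty1 and -7.73 for Lefty2, and the median of the pathway list was -4.34. Of 26 alternatives, 19 stayed within counting error (for the list, within 1.5-fold), 7 moved and 0 changed sign. The sign was largely fixed in advance, since the double knockout reached the wild-type count in 0 regions of the table. Apart from the median-ratio factor, no alternative could have changed it. Counting error is wide at a count of 0: a pseudocount of 2 gave -3.18 for Lefty1 and -5.74 for Lefty2, still inside it. Lefty2 moved to -4.65 with its regions summed and to -4.76 as the mean of its regions, because its other regions kept reads. The list moved to -3.18 with a pseudocount of 2, which enters the value directly, as the median of all genes did (-3.45). A median-ratio factor, added after seeing the data like the list without the 3 genes, raised every log2 value by 3.77 by construction. It gave -2.73 for Nodal, -1.31 for Lefty1, -3.96 for Lefty2 and -0.58 for the list, and put the Lefty2 regions with 24 and 46 wild-type reads above 0 (0.01 and 0.96). No paired analysis was possible because each group had 1 library and no replicate number, and no library could be left out. Depth limits all 6 regions: the counting intervals of the 3 with double-knockout reads reach 24.5-fold, 814-fold and 5375-fold, and the other 3 have no upper limit.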

Other observations

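Within 20000 bases of the 3 genes the table held 2 further regions, both past the end of Nodal and listed without a gene. They lie inside the RefSeq extent of Eif4ebp2, an inhibitor of cap-dependent translation, on chromosome 10 at 61430206 to 61430456 and 61431484 to 61431728, and begin 4868 and 6146 bases beyond Nodal. They had 88 wild-type reads against 6 (12.1-fold, 5.34 to 33.9) and 70 against 4 (14.4-fold, 5.39 to 54.4). Summed, this was 158 against 10, or 13.0-fold (6.90 to 27.7), and the summed fold of Nodal was 18.6 times as large (2.61 to 816). These 2 regions, whose gene of origin was not established, kept 10 reads in sum where the listed Nodal regions kept 1. Why they differed was not tested.

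In Lefty2, Ski and Drap1 the region nearest the transcription start had 0 double-knockout reads while the farthest one inside the gene kept some, with 5, 9 and 3 reads. Nodal had 0 reads in the first region and 1 in the last, and Inhba had 0 in both. Smad3 had the opposite order, with 5 reads of 52 near the start and 1 of 34 in the 3'UTR. Over the 1026 genes of the table with several regions in the gene body, the first region had the lower double-knockout share in 420 (40.9%), the last in 404 (39.4%) and the shares were equal in 202 (19.7%), so both orders were about equally frequent.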
